A study of Mus musculus with 14 samples.

Results

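The 9 enzymes followed here break down aromatic amino acids. They were compared in livers with and without Mettl3. The choice was by gene symbol, for their steps in 2 routes, and was made with earlier results of these data known. Tat, Hpd, Hgd and Fah belong to the phenylalanine and tyrosine route (4 genes), and Tdo2, Afmid, Kmo, Kynu and Haao to the tryptophan route (5 genes). All 9 were found among the 54446 genes of the table, and all 9 passed the filter on low values. Total RNA had been sequenced from livers of C57BL/6 mice aged 5 weeks. Every animal carried a floxed Mettl3 gene. The 6 control libraries had the genotype Mettl3 floxed, and the 8 knockout libraries had Mettl3 floxed with Alb-Cre, a single Cre line in which the albumin promoter drives the recombinase in hepatocytes. Mettl3 is the enzyme that adds the m6A mark to mRNA. The comparison asks how liver RNA differs when the gene is deleted in that cell type.

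Levels are given as normalised estimated counts per gene, called values here. The depth of a library was between 11.1 and 33.8 M (megareads, estimated). The lowest value of any of the 9 enzymes was 1273 in a control and 470 in a knockout. Mettl3 itself lay between 199 and 263 in controls and between 76.9 and 122 in knockouts. Sex was not labelled: replicates 1 to 4 of both groups carried Y-linked transcripts (Y-positive), while controls 5 and 6 and knockouts 5 to 8 had high Xist and fewer reads (Xist-high, 11.1 to 19.3 M). Knockouts 3, 6 and 7 stood apart from the other 5, with Cdkn1a, a cell-cycle inhibitor, at 481, 520 and 550 against 49.9 to 162. Mitochondrial coding RNA took the largest shares in knockouts 6 (7.85%) and 7 (7.91%), while the other 12 libraries lay between 2.77% and 5.47%. Nothing in the labels ties a library to a single animal, so the p-values measure the spread between these libraries. In bulk tissue, fewer cells of a type and less RNA per cell cannot be told apart.

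Liver is the main site at which phenylalanine, tyrosine and tryptophan are oxidised, and hepatocytes are the main liver cells that make the enzymes. In the first route tyrosine is transaminated by Tat, the product is turned into homogentisate by Hpd, the ring is opened by Hgd, and Fah splits the last intermediate into fumarate and acetoacetate. In the second route Tdo2 opens the indole ring of tryptophan, Afmid releases kynurenine, Kmo hydroxylates it, Kynu cleaves off alanine and Haao opens the second ring on the way to quinolinate, a precursor of NAD. Tat and Tdo2 are classical targets of glucocorticoids in liver, and inherited loss of Fah, Hpd or Tat causes tyrosinemia.

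The promoters of Tat and Tdo2 are shown because these enzymes act first among the 9 in their 2 routes. Each stretch covers the 250 bases upstream of the RefSeq start on GRCm38.p6, 5′ to 3′ on the strand of the gene, with CCAAT (or ATTGG, its reverse complement) and TATAAA in capitals.
Tat, chr8:109990186-109990435, plus strand: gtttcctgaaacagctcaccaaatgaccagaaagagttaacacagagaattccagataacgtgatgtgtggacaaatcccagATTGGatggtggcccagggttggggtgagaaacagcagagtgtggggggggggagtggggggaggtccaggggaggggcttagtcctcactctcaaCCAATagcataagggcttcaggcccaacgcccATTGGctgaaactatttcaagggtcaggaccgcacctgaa
Tdo2, chr3:81975729-81975978, minus strand: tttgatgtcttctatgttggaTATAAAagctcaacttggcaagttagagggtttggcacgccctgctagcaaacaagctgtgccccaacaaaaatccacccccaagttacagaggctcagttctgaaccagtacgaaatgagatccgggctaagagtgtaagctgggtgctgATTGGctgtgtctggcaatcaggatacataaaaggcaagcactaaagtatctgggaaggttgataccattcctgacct
The Tat window held 3 CCAAT matches, starting at -168, -72 and -40 from the RefSeq start, and that of Tdo2 held 1 at -78 and TATAAA at -229. The RefSeq start of Tdo2 lies 474 bases inside the GENCODE gene whose span is given with its values, so its window is upstream of the RefSeq start only. With those of Fah, Haao and Kmo, 4 of 8 windows lay wholly within the GENCODE gene. A RefSeq promoter was matched for 8 of the 9 enzymes, and Kynu was without an entry. Letters were searched on both strands. CCAAT was present for Tat, Tdo2 and Hgd and in 33.8% of all 32851 promoters, and TATAAA for Tdo2 and Hgd and in 12.4%. The letters AGAACA, a site for one arm of the glucocorticoid receptor, was matched for Haao alone among the 8 and in 16.1% of promoters. The full receptor palindrome (AGAACA, 3 free bases, TGTTCT), the HNF1 palindrome (GTTAAT, 1 free base, ATTAAC), the HNF4 repeat (AGGTCA, 1 free base, AGGTCA), the C/EBP letters TTGCGCAA, the D-box TTATGTAA and the E-box CACGTG were matched in 0 of the 8. Among all promoters these were present in 0.00913%, 0.00913%, 0.0335%, 0.164%, 0.819% and 6.02%. A match is a description of these letters, and a missing match covers this window only.

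The 9 transcripts differed widely in level, in controls as in knockouts. Per kilobase of the longest protein-coding transcript, Hpd had the highest control level at 20347 ± 2926 (SD, n = 6), followed by Tat at 14344 ± 3734, Haao at 9466 ± 814 and Tdo2 at 8016 ± 690 (SD, n = 6 each). Hgd at 6675 ± 579 and Fah at 2911 ± 304 came next, and the 3 lowest were Kmo at 1330 ± 192, Afmid at 1059 ± 170 and Kynu at 523 ± 36.8 (SD, n = 6 each, per kilobase). In the tryptophan route the first enzyme, Tdo2, and the last, Haao, were thus the abundant ones, with the 3 intermediate enzymes far below. Within this order Hpd and Tat, Haao and Tdo2, and Kmo and Afmid differed by less than the sum of their SDs. In knockouts the per-kilobase order was Hpd at 11313 ± 4670, Tat at 9940 ± 4444, Tdo2 at 5197 ± 1551, Hgd at 4886 ± 1228 and Haao at 4520 ± 1945 (SD, n = 8 each), so that Haao moved from the third place to the fifth. Fah (1791 ± 487), Kmo (533 ± 133), Afmid (436 ± 171) and Kynu (322 ± 120, SD, n = 8 each) kept their places. In knockouts only the steps from Haao to Fah and from Fah to Kmo exceeded the sum of the SDs of both neighbours.

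Transcripts of both routes were lower in knockouts: 8 of the 9 enzymes fell (limma, adjusted p at most 0.05), and 0 rose. Of all 23554 genes tested, 11.0% were called lower and 11.5% higher. The 9 were chosen with earlier results of these data known, so these shares are a description beside the count and not a test of it. Among the 11777 genes above the median value, 2485 were called lower and 1968 higher, with a median log2 change of -0.05. In that fit 8 of the 9 enzymes passed as lower too. Tat was the exception, with a lower mean that did not pass. The median log2 change, knockout minus control, was -0.79 over the 9 enzymes, -0.67 over the 4 of the tyrosine route and -1.21 over the 5 of the tryptophan route, against 0.05 over all genes. For 3 enzymes of the tryptophan route, Afmid, Kmo and Haao, each of the 8 knockouts lay below each of the 6 controls, which held for 4.02% of all genes. For 6 of the 9 every knockout lay below the control mean, against 13.9% of all genes.

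**Figure D1:**
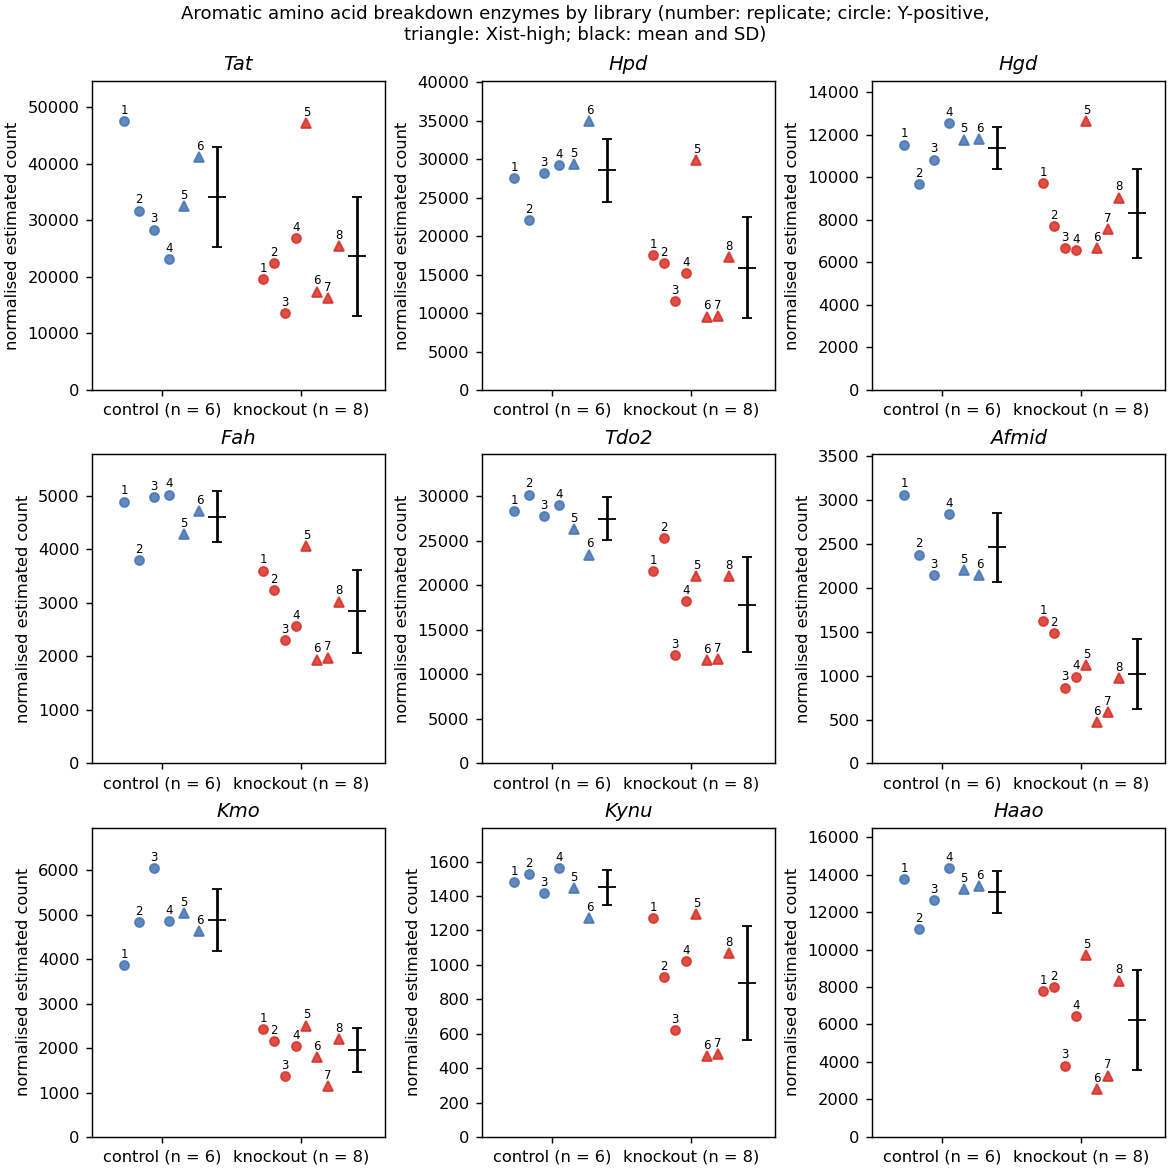
Normalised estimated count (vertical axis, from 0) of each enzyme in the 6 control (blue) and 8 knockout (red) libraries, numbered by replicate, with circles for Y-positive and triangles for Xist-high libraries and black bars for mean and SD. Afmid, Kmo and Haao show no overlap between the groups, while knockout 5 reaches the control range for Tat, Hpd, Hgd, Fah and Kynu.

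Of the tyrosine route, Tat, tyrosine aminotransferase (ENSMUSG00000001670, chromosome 8, 109990437 to 109999803, plus strand of GRCm38), had values of 23101 to 47511 in controls with a median of 32111, and of 13660 to 47188 in knockouts with a median of 21008.5. The means were 34067 ± 8867 (SD, n = 6) and 23607 ± 10554 (SD, n = 8), and the log2 change of -0.59 (SE 0.25) did not pass (limma adjusted p = 0.0970). Of the 8 knockouts 5 lay below the lowest control, but knockout 5 stood level with the highest control. Without knockout 5 the change of Tat was -0.75 and passed (limma adjusted p = 0.0127).

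Hpd, the dioxygenase that makes homogentisate (ENSMUSG00000029445, chromosome 5, 123171807 to 123182727, minus strand), had values of 22127 to 34947 in controls (median 28692). In knockouts they ran from 9549 to 29909 (median 15830.1). Knockout 5 alone lay within the control range, and the other 7 were all below it. Hpd averaged 28567 ± 4108 in controls (SD, n = 6) against 15883 ± 6556 in knockouts (SD, n = 8), and fell with a log2 change of -0.93 with an SE of 0.22 (limma adjusted p = 0.00747). For Hgd, which opens the ring of homogentisate (ENSMUSG00000022821, chromosome 16, 37580153 to 37632020, plus strand), values were 9690 to 12543 in controls (median 11655) and 6580 to 12633 in knockouts (median 7619). Here knockout 5 was the highest of all 14 libraries and knockout 1 lay just inside the control range. The mean went from 11361.5 ± 986 (SD, n = 6) to 8316 ± 2090 (SD, n = 8), and the log2 change of -0.48 (SE 0.14, limma adjusted p = 0.0255) was the smallest of the 8 that passed. Leaving out control 4 ended the call of Hgd (adjusted p = 0.0587), as did leaving out knockouts 3, 6 and 7 (-0.35, adjusted p = 0.123).

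Fah, fumarylacetoacetate hydrolase (ENSMUSG00000030630, chromosome 7, 84585159 to 84606722, minus strand), had values of 3794 to 5021 in controls (median 4800) and of 1940 to 4062 in knockouts (median 2795). Only knockout 5 lay above the lowest control, and all 8 were below the control mean. Fah averaged 4613 ± 481 in controls (SD, n = 6) against 2839 ± 773 in knockouts (SD, n = 8), and fell with a log2 change of -0.74 with an SE of 0.16 (limma adjusted p = 0.00446).

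In the tryptophan route, Tdo2, tryptophan dioxygenase of the liver (ENSMUSG00000028011, chromosome 3, 81957090 to 81976202, minus strand), had values of 23453 to 30181 in controls (median 28042) and of 11599 to 25260 in knockouts (median 19635). Knockout 2 alone lay within the control range. Tdo2 averaged 27502 ± 2369 in controls (SD, n = 6) against 17829.5 ± 5323 in knockouts (SD, n = 8), and fell with a log2 change of -0.68 with an SE of 0.19 (limma adjusted p = 0.0168). Afmid, the arylformamidase that releases kynurenine (ENSMUSG00000017718, chromosome 11, 117825924 to 117839908, plus strand), had 2144 to 3064 in controls (median 2295) and 476 to 1624 in knockouts (median 982). The groups were separate, and knockout 6 was the lowest library. Afmid averaged 2465 ± 395 in controls (SD, n = 6) against 1016 ± 398 in knockouts (SD, n = 8), and fell with a log2 change of -1.37 with an SE of 0.24 (limma adjusted p = 0.000853), or 2.58-fold.

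Kmo, kynurenine monooxygenase of the outer mitochondrial membrane (ENSMUSG00000039783, chromosome 1, 175620381 to 175662116, plus strand), had 3864 to 6053 in controls (median 4848) and 1148 to 2509 in knockouts (median 2105.5). Even the highest knockout, number 5, was well under the lowest control. Kmo averaged 4883 ± 707 in controls (SD, n = 6) against 1959 ± 487 in knockouts (SD, n = 8), and fell with a log2 change of -1.35 with an SE of 0.17 (limma adjusted p = 7.94e-05), or 2.55-fold. The changes of Afmid and Kmo differed by less than their SEs. Kmo had the smallest p of the 9, rank 207 among all genes tested.

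Kynu, kynureninase (ENSMUSG00000026866, chromosome 2, 43555329 to 43682715, plus strand), had 1273 to 1563 in controls (median 1466) and 470 to 1295 in knockouts (median 975). Controls of Kynu were the most uniform of the 9, and knockout 5 lay just above the lowest of them. Kynu averaged 1452 ± 102 in controls (SD, n = 6) against 895 ± 332 in knockouts (SD, n = 8), and fell with a log2 change of -0.79 with an SE of 0.23 (limma adjusted p = 0.0195). Haao, the dioxygenase that forms the precursor of quinolinate (ENSMUSG00000000673, chromosome 17, 83831156 to 83847963, minus strand), had 11092 to 14344 in controls (median 13304) and 2539 to 9721 in knockouts (median 7126). No knockout reached the controls, although the knockouts ranged widely. Haao averaged 13072 ± 1124 in controls (SD, n = 6) against 6242 ± 2686 in knockouts (SD, n = 8), and fell with a log2 change of -1.21 with an SE of 0.27 (limma adjusted p = 0.00552), or 2.31-fold.

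The spread between libraries was wider in knockouts for 9 of 9 enzymes: the coefficient of variation lay between 7.04% and 26.0% in controls, and between 24.9% and 44.7% in knockouts. How many of all genes had a wider spread in knockouts was not computed. The knockouts differed from one another in a similar order for most enzymes. Knockouts 3, 6 and 7 were the 3 lowest for 8 of the 9 enzymes, Hgd being the exception, and all 9 enzymes lay below the lowest control in each of these libraries. Their median level over the 9 was 40.4%, 36.7% and 33.6% of the control mean. Knockouts 1, 2, 4 and 8 had medians of 65.9%, 63.9%, 55.6% and 65.5%, with 8 of 9 enzymes below the lowest control in each. For single libraries the share of all genes below the lowest control was not computed, so such counts have no background here. Knockout 5 was the highest of the knockouts for 7 of the 9, with a median of 88.1% and 4 enzymes below the lowest control. In that library Tat stood at 138.5%, Hgd at 111% and Hpd at 105% of the control mean, yet Kmo stood at 51.4% and Afmid at 45.7%. Its depth, 11.1 M estimated reads, was the lowest of the 14, and the part that depth plays was not tested. Without knockouts 3, 6 and 7 the changes of 5 enzymes shrank by more than 1.5 times: Tat to -0.30, Hpd to -0.60, Tdo2 to -0.36, Kynu to -0.39 and Haao to -0.70. In that fit 7 of the 9 passed (9.24% of all genes were called lower).

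**Figure D2:**
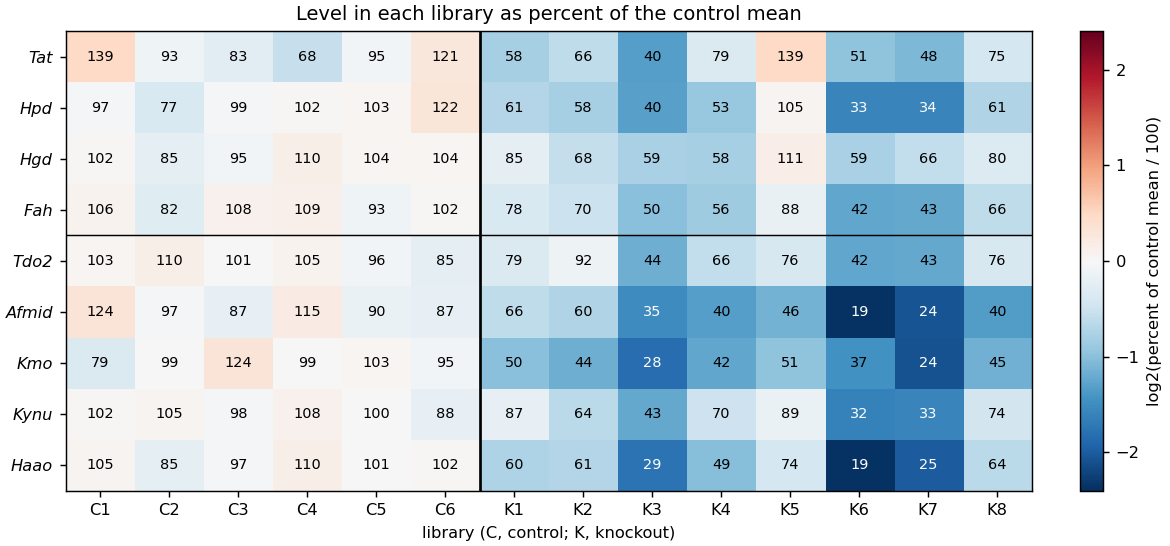
Level of each enzyme (rows) in each library (columns; C, control; K, knockout) as percent of the control mean, with colour giving the log2 of that ratio and a line between the tyrosine route (upper) and the tryptophan route (lower). Knockouts 3, 6 and 7 hold the 3 darkest blue knockout cells of every row except that of Hgd, and knockout 5 lies near or above 100% for Tat, Hpd and Hgd but at 51.4% for Kmo.

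The size of the changes depended on how libraries were scaled. Summed over all genes, the deposited values came to between 21.5 and 27.6 M in controls and between 16.8 and 20.7 M in knockouts. With libraries brought to the same sum outside ribosomal RNA (equal sums), the median over all genes went from 0.05 to 0.38 on the log2 scale, and the 9 enzymes remained lower by between 0.14 (Hgd) and 1.03 (Afmid) on the log2 scale. In that fit 5 of the 9 passed as lower, Hpd, Fah, Afmid, Kmo and Haao, against 3.67% of all genes called lower and 33.4% called higher. Tdo2 (-0.34, limma adjusted p = 0.102), Kynu (-0.45, 0.0797) and Hgd (-0.14, 0.406) lost their calls. After quantile normalization 5 of the 9 passed as well, Fah, Afmid, Kmo, Kynu and Haao, against 10.2% of all genes. There the change of Tat was -0.01, that of Tdo2 -0.12 (limma adjusted p = 0.663), that of Hgd -0.13 (0.494) and that of Hpd -0.39 (0.198). Fah, Afmid, Kmo and Haao passed under all 3 scalings. At a threshold of 0.01 with the deposited scaling 5 of the 9 passed, against 5.77% of all genes. In the authors' deposited table q was at most 0.05, with a lower level, for 8 of the 9, against 8.26% of its genes, and with the replicate number as a block 7 of the 9 passed, against 8.14%.

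**Figure D3:**
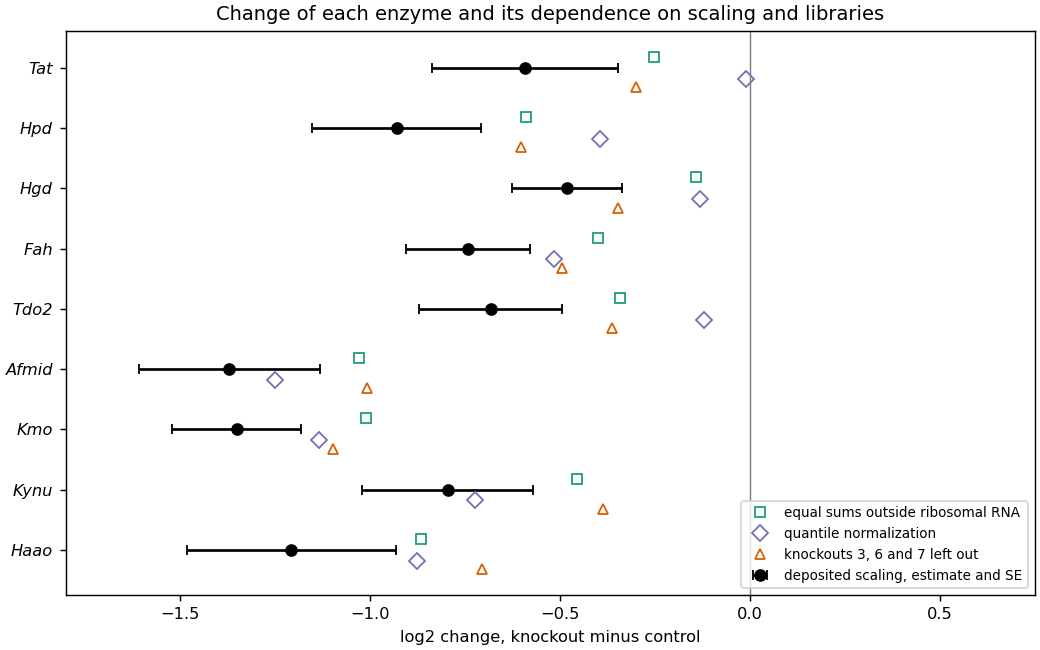
Log2 change of each enzyme, knockout minus control, with its SE under the deposited scaling (black) and the change under equal sums (squares), quantile normalization (diamonds) and without knockouts 3, 6 and 7 (triangles). All points lie below 0, and Afmid and Kmo stay at or beyond -1.01 in each of the 4.

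Within the Y-positive libraries, 4 against 4, 7 of the 9 enzymes passed as lower (8.30% of all genes did), and Tdo2 joined Tat in missing the threshold (-0.63, limma adjusted p = 0.0743). Within the Xist-high libraries, 2 controls against 4 knockouts, 0 of the 9 passed, and the smallest limma adjusted p was 0.0926 for Kmo. Only 0.200% of all genes were called lower in that small comparison. The log2 changes in the Xist-high libraries were nonetheless of the same sign for all 9, from -0.44 for Hgd to -1.55 for Afmid. A direct test of the difference between the classes (limma interaction of genotype and class) called 0 of the 9, with changes that differed by -0.44 to 0.12 on the log2 scale. Its smallest adjusted p was 0.858, 0 of the 9 had an unadjusted p under 0.05, and 0.0552% of all genes were called. Depth and class ran together, so they cannot be told apart here.

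A ratio of 2 enzymes in the same library does not change when all values of that library are multiplied by 1 factor, so each enzyme was also set against the one before it in its route. Of the 7 ratios, 5 differed between the groups (exact permutation test, two-sided, over 3003 splits, adjusted over the 7), so in these 5 the levels of the 2 enzymes shifted against each other. How many ratios of other gene pairs differ was not computed, so this count has no background here. Each difference follows from 2 log2 changes given above, and neighbouring ratios of a route share an enzyme, so the ratios are not independent results. In the tryptophan route, Afmid fell further than Tdo2: the log2 ratio of Afmid to Tdo2 was -3.49 ± 0.19 (SD, n = 6) in controls and -4.18 ± 0.29 (SD, n = 8) in knockouts, a difference of -0.69 (exact permutation adjusted p = 0.00466). This ratio ran from -3.69 to -3.21 in controls and from -4.60 to -3.73 in knockouts, with a gap between the groups. The ratio of Kmo to Afmid differed by 0.02, which did not pass (exact permutation adjusted p = 0.938), and single knockouts spread from 0.54 to 1.91 in this log2 ratio. Kynu was higher relative to Kmo by 0.56, in 7 of 8 knockouts (exact permutation adjusted p = 0.0128). Haao was in turn lower relative to Kynu by 0.41, in 8 of 8 knockouts (difference -0.41, exact permutation adjusted p = 0.0128).

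In the tyrosine route Hgd was higher relative to Hpd in 8 of 8 knockouts, by 0.45 (exact permutation adjusted p = 0.0128), and Fah was lower relative to Hgd in 7 of 8 (-0.26, adjusted p = 0.0312). Hpd relative to Tat differed by -0.34, which did not pass (exact permutation p = 0.0763, adjusted p = 0.0890). That ratio passed without control 1 (-0.45, exact permutation adjusted p = 0.0261) or knockout 1 (-0.40, 0.0483) singly. The ratio of Fah to Hgd did not pass once knockouts 3, 6 and 7 were left out (-0.15, adjusted p = 0.139) and without control 1, 3, 4 or 6 singly (adjusted p up to 0.0740). Within the Y-positive libraries 0 of the 7 ratios passed (exact permutation test; smallest adjusted p = 0.10, where 4 against 4 allows no raw two-sided p below 0.0286). The difference there was -0.48 for Afmid to Tdo2 and 0.62 for Kynu to Kmo. Quantile normalization, which is not a single factor per library, does alter ratios, and 2 of the 7 passed after it (exact permutation test, adjusted over the 7). These were Afmid to Tdo2 (-1.13, exact permutation adjusted p = 0.00233) and Fah to Hgd (-0.38, 0.0256). Hgd to Hpd (0.26, 0.179), Kynu to Kmo (0.41, 0.0793) and Haao to Kynu (-0.15, 0.203) lost their calls there.

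**Figure D4:**
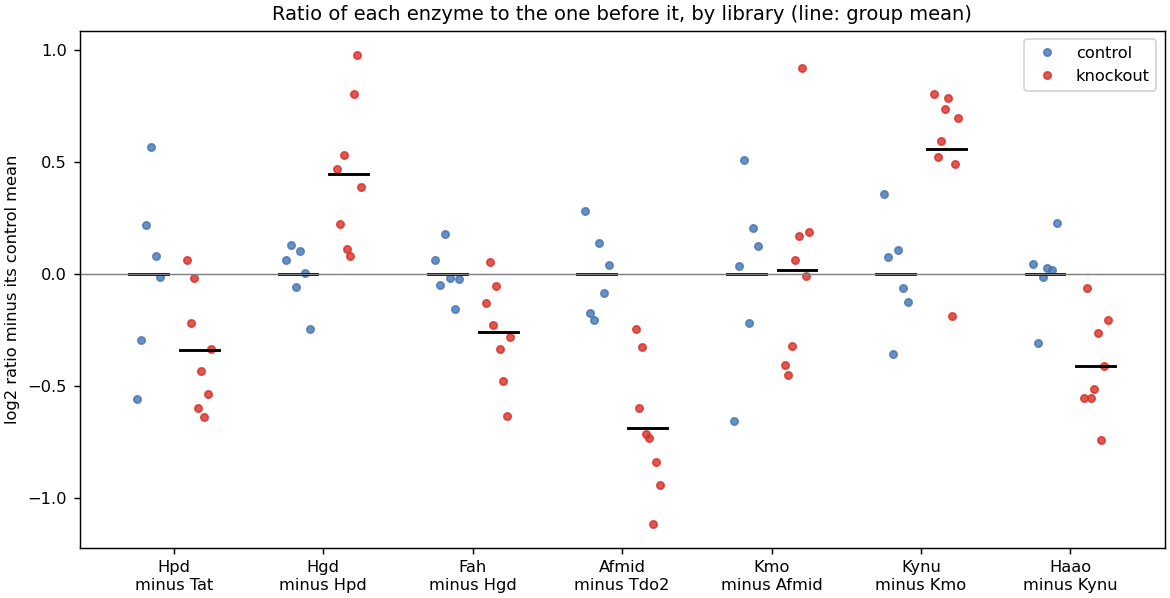
Log2 ratio of each enzyme to the one before it in its route, minus its control mean, for every control (blue) and knockout (red) library, with lines at the group means. Knockouts lie apart from controls for Afmid to Tdo2, and above the control mean in 8 of 8 for Hgd to Hpd and in 7 of 8 for Kynu to Kmo.

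Around the tyrosine route 15 further genes were tested, which included the enzymes that make and recycle the cofactor tetrahydrobiopterin. Of these 6 fell, 2 rose and 7 did not pass, with a median log2 change of -0.23. Gch1, the first and rate-limiting enzyme of tetrahydrobiopterin synthesis, averaged 5407 ± 770 in controls (SD, n = 6) against 2607 ± 664 in knockouts (SD, n = 8), and fell with a log2 change of -1.09 (limma adjusted p = 0.000350) with separate groups. Pcbd2, a pterin dehydratase, fell by 0.97 and Dnajc12, a co-chaperone, by 0.92, each without overlap. The decreases also included Qdpr (-0.75), the reductase that regenerates the cofactor, and Gstz1 (-0.72), the isomerase between Hgd and Fah. Qdpr and Gstz1 lie outside the naming rule and were chosen with their values in view. Hpdl, a mitochondrial relative of Hpd, was instead higher, at 9.68 ± 2.44 (SD, n = 6) in controls and 30.0 ± 15.7 (SD, n = 8) in knockouts (log2 1.37, limma adjusted p = 0.0104). Its level stayed far below that of Hpd, and it did not pass once knockouts 3, 6 and 7 were left out (log2 1.0, adjusted p = 0.0655) or in Y-positive libraries alone (0.81, 0.201). Spr, the last enzyme of tetrahydrobiopterin synthesis, rose by 0.62 and was also chosen with its value in view. Under equal sums 5 of the 15 fell and 4 rose, against 3.67% of all genes called lower and 33.4% called higher. After quantile normalization 4 fell and 3 rose. Qdpr lost its call in both scalings (limma adjusted p = 0.0587 and 0.0671), and Gstz1 after quantile normalization (0.178).

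Around the tryptophan route 13 further genes were tested, with 4 lower, 2 higher and 7 not passing, and a median of -0.22. Ido1, the inducible relative of Tdo2, did not pass the filter on low values. Kyat1 and Aadat, aminotransferases that turn kynurenine into kynurenic acid, fell from 3688 ± 762 to 1875 ± 628 (log2 -1.02, limma adjusted p = 0.00245) and from 1981 ± 489 to 1068 ± 315 (-0.92, 0.00492; SD, n = 6 and n = 8). Neither overlapped between the groups. Acmsd, the decarboxylase that draws the product of Haao away from quinolinate, averaged 587 ± 120 in controls (SD, n = 6) against 1175 ± 332 in knockouts (SD, n = 8), and rose with a log2 change of 0.98 (limma adjusted p = 0.00138). It thus moved against Haao, the enzyme just before it. Maoa, a monoamine oxidase, rose by 0.82 and lost its call without control 1, 2, 3 or 4 singly (adjusted p from 0.0539 to 0.0694). Of the genes outside the naming rule, Gcdh, a dehydrogenase of the last common steps with lysine, fell by 0.59, and Maob, the second monoamine oxidase, by 0.69. Maob lost its call when any of 8 single libraries was left out (controls 4, 5 and 6, knockouts 2, 3, 4, 6 and 7; adjusted p from 0.0557 to 0.0917). Under equal sums neither Gcdh (-0.25, 0.164) nor Maob (-0.35, 0.225) passed. In that scaling 2 of the 13 fell and 4 rose, against 3.67% of all genes called lower and 33.4% called higher. After quantile normalization 2 fell and 3 rose.

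**Figure D5:**
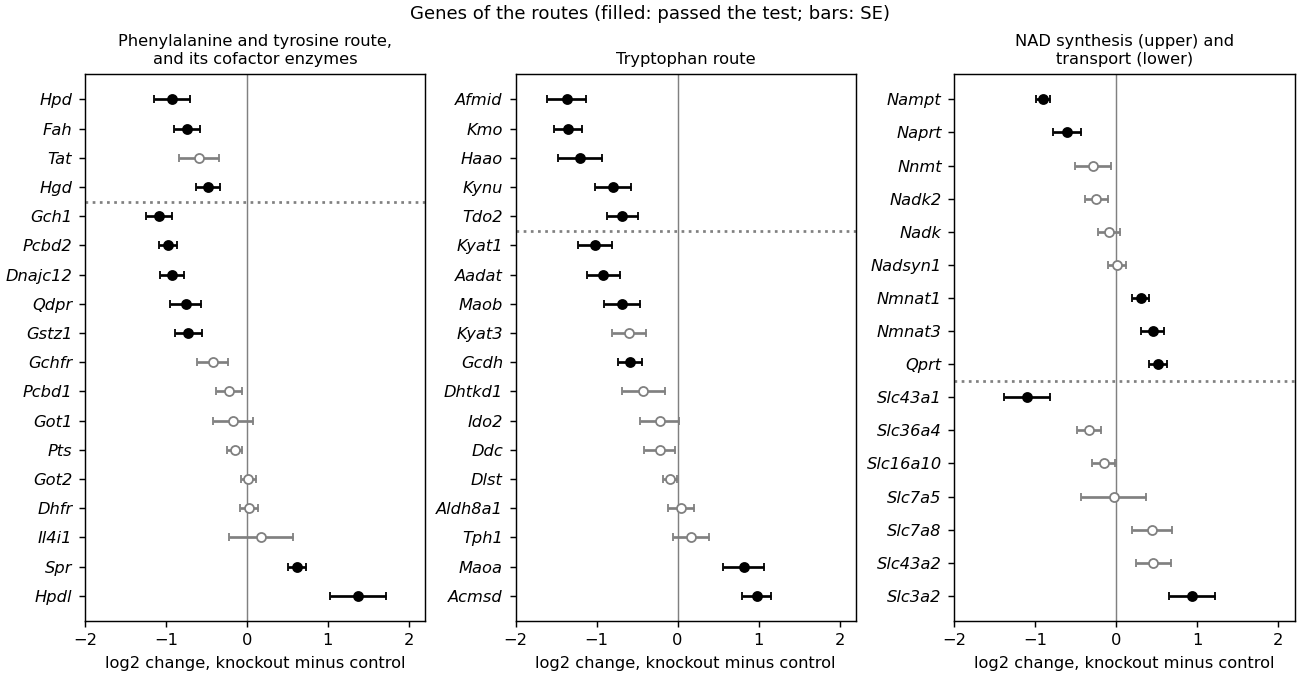
Log2 change, knockout minus control, with its SE for tested genes of the 2 routes (the 9 enzymes above the dotted line), of NAD synthesis and of aromatic amino acid transport, filled where the limma test passed. The 9 enzymes all lie to the left of 0, whereas Hpdl, Spr, Acmsd, Maoa, Slc3a2 and 3 genes of NAD synthesis are filled to the right.

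Beyond Haao, 9 genes of NAD synthesis and use were tested, and 3 rose, 2 fell and 4 did not pass (median -0.09). Qprt, which takes quinolinate into NAD synthesis, averaged 674 ± 125 in controls (SD, n = 6) against 956 ± 87.3 in knockouts (SD, n = 8), and rose with a log2 change of 0.52 (limma adjusted p = 0.00394) without overlap. Nampt, the rate-limiting enzyme of salvage from nicotinamide, averaged 553 ± 45.6 in controls (SD, n = 6) against 295 ± 23.3 in knockouts (SD, n = 8), and fell with a log2 change of -0.91 (limma adjusted p = 5.68e-06). Its groups were separate too. Naprt, the salvage enzyme for nicotinic acid, fell by 0.61 and lost its call under equal sums (-0.27, adjusted p = 0.187) and without knockouts 3, 6 and 7 (-0.37, 0.0758). Nmnat3 rose by 0.45 and Nmnat1, outside the naming rule, by 0.30. Nmnat3 lost its call without controls 2, 3, 4 or 6 or knockouts 1, 2, 4 or 7 singly (adjusted p from 0.0530 to 0.0828), and Nmnat1 without any 1 library except knockouts 3 and 7 (adjusted p from 0.0501 to 0.0874). Of 7 transporter genes 1 fell, 1 rose and 5 did not pass (median -0.04). Slc43a1, a carrier of large neutral amino acids, fell by 1.10, from 175 ± 20.7 (SD, n = 6) to 91.3 ± 52.5 (SD, n = 8). Slc3a2, the heavy chain shared by several amino acid carriers, rose by 0.94 and lost its call without control 1, 2 or 4 or knockout 3 singly (adjusted p from 0.0509 to 0.0537) and without knockouts 3, 6 and 7 (0.48, 0.0951).

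Regulators known for these genes in liver were 13, of which 5 fell, 1 rose and 7 missed the threshold (median -0.52). Onecut1, a hepatocyte transcription factor, averaged 1351 ± 623 in controls (SD, n = 6) against 539 ± 324 in knockouts (SD, n = 8), and fell with a log2 change of -1.35 (limma adjusted p = 0.0140). Onecut1 missed the threshold without knockouts 3, 6 and 7 (-1.11, 0.0841). Foxa3 and Foxa1, pioneer factors of the liver, fell by 0.96 and 0.58. Nr3c1, the glucocorticoid receptor, averaged 1294 ± 53.7 in controls (SD, n = 6) against 895 ± 125 in knockouts (SD, n = 8), and fell with a log2 change of -0.54 (limma adjusted p = 0.00129) without overlap. Under equal sums the change of Nr3c1 was -0.20 and did not pass (adjusted p = 0.0969). Foxa1 did not pass there either (-0.24, 0.253), nor without control 1, 3 or 4 or knockout 3 or 7 singly (adjusted p from 0.0512 to 0.0761). Outside the naming rule, Hnf4a, a nuclear receptor of hepatocytes, fell by 0.52, and Ahr, the receptor that kynurenine can bind, rose by 0.41. Hnf4a did not pass under equal sums (-0.18, 0.155), and Ahr did not pass without control 3 or 4 singly (0.0537 to 0.0669) or without knockouts 3, 6 and 7 (0.0767). Under equal sums 3 of the 13 regulators rose and 2 fell, against 33.4% of all genes called higher and 3.67% called lower.

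Of 11 genes that glucocorticoids induce, 2 fell, 0 rose and 9 did not pass (median -0.63), where 11.0% of all genes were called lower. Those that did not pass lie outside the naming rule and went both ways. Zbtb16 (log2 1.30), Igfbp1 (1.72) and Sgk1 (0.14) were higher. Mt2 (-1.90), Tsc22d3 (-1.20), G6pc (-0.99), Per1 (-0.63), Fkbp5 (-0.18) and Dusp1 (-0.12) were lower. Pck1, the entry enzyme of gluconeogenesis, averaged 46929 ± 16705 in controls (SD, n = 6) against 19004 ± 10456 in knockouts (SD, n = 8), and fell with a log2 change of -1.42 (limma adjusted p = 0.00977). Mt1, a metallothionein, fell by 1.98, with controls that ranged widely at 2808 ± 2464 (SD, n = 6). Its call was lost without controls 2, 4, 5 or 6 or knockouts 1, 2, 4 or 8 singly (adjusted p from 0.0533 to 0.0842). Neither gene passed after quantile normalization (Mt1 adjusted p = 0.0509, Pck1 0.0707), and Pck1 also missed without knockouts 3, 6 and 7 (-1.03, 0.0541).

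Enzymes that break down other amino acids were tested beside the aromatic ones: of 30 genes 12 fell, 1 rose and 17 did not pass, with a median of -0.51. Cdo1, cysteine dioxygenase, averaged 23968 ± 3025 in controls (SD, n = 6) against 10867 ± 4263 in knockouts (SD, n = 8), and fell with a log2 change of -1.24 (limma adjusted p = 0.00217). Aass, the first enzyme of lysine breakdown, fell by 1.18, Prodh2, a hydroxyproline dehydrogenase, by 1.16, and Ahcy, which hydrolyses S-adenosylhomocysteine, by 1.06. Cdo1, Aass and Prodh2 did not overlap between the groups. The single rise, Bckdhb at 0.24, was lost when any of 10 single libraries was left out (adjusted p from 0.0524 to 0.0917; it still passed without control 4 or knockout 3, 4 or 6) and was chosen with its value in view. Under equal sums 6 of the 30 fell and 4 rose, against 3.67% of all genes called lower and 33.4% called higher.

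Markers of liver cell types were measured in the same libraries. Of 15 hepatocyte genes 9 fell, 0 rose and 6 did not pass (median -0.65), where 11.0% of all genes were called lower and 11.5% higher. Among the 6 were Ahsg (log2 0.06), Trf (-0.13) and Apoa1 (-0.14), which lie outside the naming rule. The summed value of the 15 ran from 1463270 to 1761450 in controls and from 931774 to 1445830 in knockouts. Alb, whose promoter drives the Cre, averaged 185178 ± 35514 in controls (SD, n = 6) against 88709.5 ± 20489.5 in knockouts (SD, n = 8), and fell with a log2 change of -1.07 (limma adjusted p = 0.00105), and Rbp4, a retinol carrier, by 1.03. Under equal sums 4 of the 15 fell (3.67% of all genes did), and after quantile normalization 1 did (10.2% of all genes). After quantile normalization Alb was at -0.63 and did not pass (limma adjusted p = 0.0857). Cholangiocyte genes rose in 3 of 7 (11.5% of all genes did), with Sox9 at 1.70, Epcam at 1.31 and Spp1 at 1.17. The 7 summed to 1095 to 2030 in controls and 1721 to 4040.3 in knockouts. Under equal sums 4 of the 7 rose (33.4% of all genes did), and after quantile normalization 2 did. Spp1 did not pass in Y-positive libraries alone (0.74, limma adjusted p = 0.181). Epcam did not pass once knockouts 3, 6 and 7 were left out (0.59, adjusted p = 0.186), nor without controls 1, 2, 4 or 5 or knockouts 3, 6, 7 or 8 singly (adjusted p from 0.0509 to 0.10). Endothelial genes fell in 3 of 7 (11.0% of all genes did), with Clec4g at -0.54, Stab1 at -0.37 and Kdr at -0.36. Under equal sums 0 of the 7 fell. Spp1 and Kdr lie outside the naming rule. Stab1 lost its call without control 3, 4 or 6 or knockout 2 singly (adjusted p from 0.0508 to 0.0667), and Kdr without any 1 library except knockouts 5 and 8 (adjusted p from 0.0508 to 0.113).

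Of 11 Kupffer cell, 8 lymphocyte, 3 neutrophil and 8 stellate cell genes tested, 0 passed in either direction. The gene with the smallest p was Cd68 for Kupffer cells (log2 0.52, limma adjusted p = 0.232), Csf3r for neutrophils (0.39, 0.367) and Dcn for stellate cells (-0.30, 0.119). Under equal sums 1 Kupffer cell gene (Cd68, 0.86, limma adjusted p = 0.0482), 1 lymphocyte gene and 1 stellate cell gene passed as higher. Of all genes 33.4% were called higher in that fit. Without knockouts 3, 6 and 7, 2 stellate cell genes passed as lower, among them Dcn (-0.43, adjusted p = 0.0391). Summed levels overlapped between the groups for Kupffer cells (10276 to 13394 in controls, 7086 to 18886 in knockouts), lymphocytes (390.4 to 515 and 307 to 686), neutrophils (64.6 to 130 and 63.5 to 293) and stellate cells (4979 to 6207 and 3480 to 6047). No listed marker was at 0 in all libraries. Of 8 pancreatic acinar genes 2 passed the filter on low values, and Cela2a reached 1840 in knockout 4, a library in which the 9 enzymes lay between 40.1% and 78.9% of the control mean. Cela2a did not pass (limma adjusted p = 0.0660), but was called higher under equal sums (log2 2.28, adjusted p = 0.0222) and without knockout 2 (2.25, 0.0349) or 4 (1.33, 0.0232) singly. The part of these markers in the changes of the 9 enzymes was not tested.

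The genes whose pattern over the 14 libraries was closest to each enzyme that passed were sought among 16169 protein-coding genes, by the root mean square difference of log2 values centred on the control mean. Hpd was closest to F7, coagulation factor VII, at 0.14. Fah was closest to Proz, protein Z of the clotting system, at 0.09, and to Serpina1b, an alpha-1-antitrypsin, at 0.11. Tdo2 lay nearest to Ghr, the growth hormone receptor, at 0.12, and to Glo1, a glyoxalase, at 0.14, and Kynu to Glo1 at 0.13 and Msrb1 at 0.15. Hgd lay nearest to Mthfd1 (0.11) and Ifitm2 (0.13), Kmo to Slc27a2 (0.13) and Vmn1r70 (0.20), Haao to Pbld1 (0.14) and Aspdh (0.17), and Afmid to Slc38a3 (0.25) and Cyp2d10 (0.25). Cyp2d10 and Serpina1b have close relatives with which they can share reads. Among the 9 themselves the closest pair was Fah and Tdo2, of different routes, at 0.21, and the farthest was Tat and Afmid at 0.78.

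Some of these genes overlap a neighbour, and the strand setting of the counting was not stated, so reads of both strands may have been joined. Afmid starts 168 bases from Tk1, thymidine kinase, on the opposite strand, and the annotations share 83 exon bases. Tk1 averaged 602 ± 137 in controls (SD, n = 6) against 380.5 ± 109 in knockouts (SD, n = 8), and fell with a log2 change of -0.68 (limma adjusted p = 0.0168). It did not pass under equal sums (-0.34, 0.113), in Y-positive libraries (-0.65, 0.103) or once knockouts 3, 6 and 7 were left out (-0.45, 0.0969). Gm20708 on the same strand shares 1566 exon bases with Afmid and was listed at 63.5 in controls and 32 in knockouts. Its change did not pass (log2 -0.76, limma adjusted p = 0.154). Hpd overlaps Psmd9, a proteasome chaperone (-0.67, limma adjusted p = 0.000315), and Kmo overlaps Fh1, fumarase (-0.63, 0.00162), both on the opposite strand with 0 shared exon bases. These neighbours were chosen for their position, with their values in view.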

How the data were processed

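Liver total RNA libraries of 6 control and 8 knockout samples were analysed, made with a stranded Takara SMARTer Pico kit per the labels' protocols. Quantification used kallisto with mm10, and the authors' test was that of sleuth, per the submitters' processing notes; versions and the strand setting are not given in the sources used here. The signal values that the authors deposited are normalised estimated counts per gene. The authors' deposited change is a natural log of values plus 0.5, control minus knockout, and was used, with the authors' p-value and q-value, only as an alternative (q at most 0.05). Of 75859 lines, 54446 genes remained, 1 line each. The depth was estimated from the worth of 1 read, taken as the most frequent nonzero value of a library. Of nonzero values under 200 reads, between 27.9% and 29.8% per library lay at whole multiples of it, so the depths are approximate. Binomial intervals were left out because the values are not counts.

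The design allowed for counts, but the values were normalised, so limma 3.58.1 in R 4.3.3 was used with a trended prior on log2(value + 1), which understates changes of low genes. Genes with a value of 10 or more in 6 or more libraries were kept (23554 genes), and p-values were adjusted by Benjamini-Hochberg (adjusted p at most 0.05). Ratios were tested by an exact permutation test written in Python 3.11.15 with numpy 2.4.6. Code was tested on simulated data. The members and gene lists were chosen with earlier results of these data known. Named genes were the 9 enzymes, the called genes of each other list with the largest change (up to 4 per pathway list, up to 2 per cell type list) or that with the smallest p, the 2 nearest genes of each enzyme that passed, and Mettl3; a few genes it picks are not reported here but stay in the list counts. Positions are from GENCODE on GRCm38 and promoters from RefSeq on GRCm38.p6. Alternatives were the pseudocount 0.1, no filter, genes above the median, scalings, depth and Xist class as covariates, each class alone, a replicate block, a threshold of 0.01 and libraries left out.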

Additional observations from a re-analysis of the deposited data

Results flagged for a closer look

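Among 130 sets of values looked at (each gene or ratio in each group), 6 had a library that stood apart from the rest of its group by Dixon's criterion. Chance alone gives about 1 in 20. Knockout 5 had the highest value of Tat, 47188, with the other 7 knockouts at 13660 to 26878, and of Hpd, 29909, with the others at 9549 to 17534. Knockout 6 had the highest log2 ratio of Kmo to Afmid, 1.91, with the others at 0.54 to 1.18. The same library had the lowest log2 ratio of Kynu to Kmo, -1.93, with the others at -1.25 to -0.94. Cela2a, a pancreatic elastase, was at 1840 in knockout 4 against 20.7 to 91.5 in the other knockouts, and at 64.6 in control 3 against 14.3 to 28.8 in the other controls.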

How the results depend on the processing

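The count of 8 enzymes lower was 7 to 9 under most alternatives, among them 7 to 9 when single libraries were left out, and 0 were higher in any. It was 5 under equal sums, 5 after quantile normalization, 5 at a threshold of 0.01 and 0 in the Xist-high libraries alone. Of 243 recomputed changes of single enzymes 219 stayed on their side of the threshold, 22 lost their call, 2 gained one and 0 changed sign. Both gains were those of Tat, without knockout 5 and with log2 estimated reads as a covariate (-0.74, adjusted p = 0.0456). Of the ratios 5 passed, 4 to 6 with single libraries left out, 0 in Y-positive libraries and 2 after quantile normalization, an alternative chosen after seeing the data. The ratio of Kmo to Afmid, not called, turned to -0.20 in Y-positive libraries, -0.088 without knockouts 3, 6 and 7, and ran from -0.11 to 0.12 without single libraries. Dcn, a stellate cell gene that did not pass, turned to 0.043 under equal sums and passed as lower without knockouts 3, 6 and 7 (-0.43, adjusted p = 0.0391). With the replicate number as a block 7 enzymes passed, Hgd being lost (adjusted p = 0.0637). The numbers were not taken as pairs: same-numbered libraries correlated at 0.0806 to 0.362 in their deviations from the group means. Among replicates 1 to 6, only control 4 and knockouts 1 and 3 correlated best with their own number in the other group. The cause of these shifts was not tested.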
